A study of Mus musculus with 4 samples.

Results

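The genes described here encode the core of insulin, PI3K-AKT and mTOR signalling. They are 31 genes chosen by name, and matching identifiers to GENCODE M21 found all 31 among the 43629 Ensembl mouse genes of the count files. The series holds 4 RNA-seq libraries of C57BL/6 mouse pancreatic islets, 1 per group. The labelled knockout came from islets of genotype Rip2;IMP2, which the series title calls islet-specific. The IMP2 RIP library holds RNA recovered from WT islets by immunoprecipitation of IMP2, the library labelled IgG also carries the genotype WT and is named for the usual control antibody of such an experiment, and control islets carry the genotype control. The label Rip2 usually stands for a rat insulin promoter, which acts in beta cells, and the other cells of an islet keep the intact gene in such a model. The sources used here give no age, and none says how many animals a library holds.

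Insulin and the insulin-like growth factors bind receptor tyrosine kinases, which phosphorylate the IRS adaptors and so recruit PI3K. The lipid made by PI3K brings AKT to the membrane, where the kinase PDK1 and the mTORC2 complex activate it. AKT restrains GSK3, the FOXO transcription factors and the TSC complex, and the loss of TSC activity lets the small GTPase RHEB switch on mTORC1, which promotes translation through the S6 kinases and by releasing the block of the 4E-BP proteins. In beta cells this pathway is known for its part in cell mass, cell size and insulin output. IMP2, the RNA-binding protein encoded by Igf2bp2, is itself a known substrate of mTOR.

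Library depth was 24275628 gene counts in the labelled knockout, 6025594 in the IMP2 RIP, 13195732 in the IgG library and 26350813 in control islets. Igf2bp2 was not lower in the labelled knockout, at 9.14 CPM (a gene's counts per 1000000 counts of all genes) against 9.68 CPM in control islets, so the library is called the labelled knockout throughout; a count over the whole gene cannot check a deletion of part of it. Islet and fat markers differed between the immunoprecipitations. The summed level of 6 beta cell markers was 331705 CPM in the labelled knockout, 233659 in the RIP, 961.9 in the IgG library and 307021 in control islets. The summed level of 4 brown adipocyte markers (Ucp1, Cidea, Elovl3 and Dio2) was 2.10, 721.9, 10464 and 2.09 CPM in the same libraries, with Elovl3 at 0 counts in the labelled knockout and in control islets. The library labelled IgG thus goes against its islet label, and every comparison with it below also compares these markers; their part in the results was not tested. With 1 library per group no difference here has a replicate check and no p-value is given. Intervals are exact 95% intervals on the counts, cover counting error only, and compare libraries, not conditions.

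Together the 31 genes took 0.152% of gene counts in the labelled knockout, 0.126% in the RIP, 0.158% in the IgG library and 0.157% in control islets. Such shares, and CPM, also depend on the most abundant RNAs. Gm42418 alone took 1.70%, 17.6%, 3.57% and 1.53% of gene counts in the same order. The beta cell markers above took far more of the control than of the IgG counts, so near-equal shares do not mean equal levels. Compared per exon length, as TPM (transcripts scaled to a common total), Akt1 was the most abundant of them in the labelled knockout (89.3 TPM), in the RIP (38.5 TPM) and in control islets (82.5 TPM). In the IgG library the leading gene was Eif4ebp1 at 179.7 TPM, followed by Gsk3a at 105.4 TPM and Akt2 at 71.4 TPM, while Akt1 ranked 6th at 13.6 TPM. Next to Akt1 in control islets came Akt1s1 at 31.8 TPM, Gsk3a at 30.7 TPM and Pik3r2 at 27.4 TPM. The lowest in control islets were Igf1r at 1.21 TPM and Irs1 at 0.536 TPM. In the IgG library 27 members had counts, and in each of the other libraries all 31 did.

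**Figure D1:**
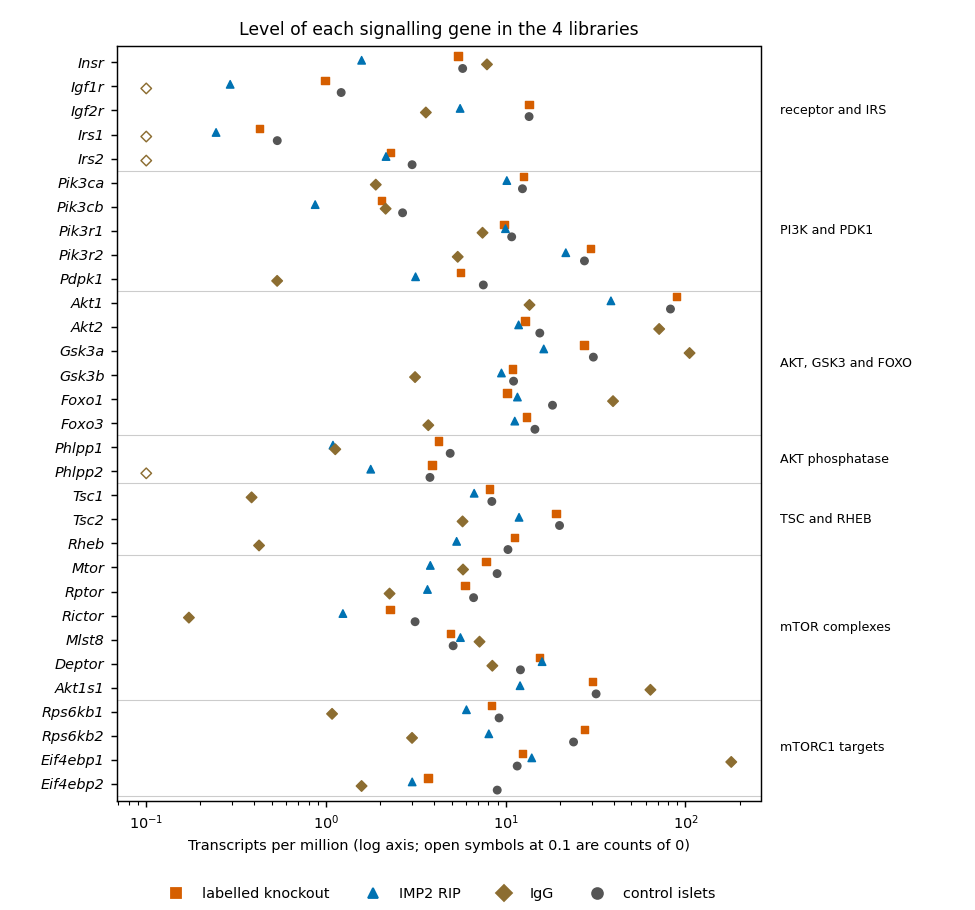
Level of each of the 31 genes in TPM (horizontal log axis) in the labelled knockout, the IMP2 RIP, the IgG library and control islets, 1 symbol per library, grouped by branch. Labelled knockout and control symbols lie close together for most genes, with Eif4ebp2 (3.70 against 8.97 TPM) the widest gap, while IgG symbols lie far to either side; open symbols mark Igf1r, Irs1, Irs2 and Phlpp2, which had 0 counts in the IgG library.

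The comparison of the labelled knockout with control islets addresses, by its labels, which RNA levels differ after IMP2 loss, a loss that the Igf2bp2 counts did not show. Eif4ebp2, which encodes a repressor of cap-dependent translation that mTORC1 switches off, and Foxo1, a transcription factor that insulin signalling keeps out of the nucleus, were lower in the labelled knockout. No member was called higher. Calls needed a change of 1.5-fold or more and an interval that left out 1, at a mean of at least 1 CPM over both libraries. By this rule 2 of 31 members (6.45%) were lower, against 15.3% of the 15735 genes measured, and 0 were higher, against 6.13% of the genes measured, where calls in either direction made up 21.4%. The median log2 ratio of the members was -0.05, beside 0.00 over the measured genes. The share of lower calls among these genes was thus below that of the whole table.

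Eif4ebp2 (ENSMUSG00000020091, chromosome 10, 61428491 to 61452661, minus strand, mm10) was counted 301 times in the labelled knockout, 78 times in the RIP, 78 times in the IgG library and 773 times in control islets, which is 12.4, 12.9, 5.91 and 29.3 CPM in the same order. Control islets were the highest of the 4. The ratio of the labelled knockout over control islets, scaled by TMM, was 0.438 (95% interval 0.382 to 0.501). Foxo1 (ENSMUSG00000044167, chromosome 3, 52268336 to 52353221, plus strand) was counted 1238 times in the labelled knockout, 450 times in the RIP, 2928 times in the IgG library and 2351 times in control islets, or 51.0, 74.7, 221.9 and 89.2 CPM. The labelled knockout was the lowest of the 4, and its ratio over control islets was 0.592 (0.552 to 0.634). With an assumed variation of 0.2 between libraries Eif4ebp2 kept its call and Foxo1 lost it. Lymphocyte markers moved the same way in these libraries. All 4 B cell markers were lower in the labelled knockout, with a summed level of 143.1 CPM against 739.8 CPM in control islets, and so were all 4 T cell markers, at 11.3 against 84.3 CPM, none of them at 0 counts. Endothelial markers summed to 260.3 CPM in the labelled knockout against 382.5 CPM in control islets, with 1 of 3 called lower, and alpha cell markers to 24601.5 against 14047.6 CPM, with 3 of 4 called higher. The part of these cell types in the lower Foxo1 and Eif4ebp2 levels was not tested. In bulk RNA, fewer cells of a type and less RNA per cell cannot be told apart.

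The promoter windows of Eif4ebp2 and Foxo1, 250 bases before to 50 after each start site, are shown because these were the members with lower RNA in the labelled knockout. They come from RefSeq (GRCm38.p6, the assembly of mm10), which held windows for 27 of the 31 genes. Eif4ebp2 lies at chr10:61452620-61452919 on the minus strand and Foxo1 at chr3:52268087-52268386 on the plus strand, and capitals mark matches to the motifs named below.
Eif4ebp2: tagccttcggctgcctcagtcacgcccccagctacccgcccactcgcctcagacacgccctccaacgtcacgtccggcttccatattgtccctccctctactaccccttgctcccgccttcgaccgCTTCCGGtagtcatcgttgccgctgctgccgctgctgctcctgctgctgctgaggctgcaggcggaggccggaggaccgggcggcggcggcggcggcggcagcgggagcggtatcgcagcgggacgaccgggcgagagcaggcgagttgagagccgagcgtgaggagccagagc
Foxo1: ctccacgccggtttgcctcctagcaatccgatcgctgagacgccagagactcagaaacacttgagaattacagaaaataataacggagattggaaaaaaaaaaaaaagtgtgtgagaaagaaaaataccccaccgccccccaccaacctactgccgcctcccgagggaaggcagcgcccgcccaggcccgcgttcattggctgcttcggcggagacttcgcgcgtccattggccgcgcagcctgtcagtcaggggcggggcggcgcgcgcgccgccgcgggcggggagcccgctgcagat

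G and C made up 70.0% of the Eif4ebp2 window and 61.3% of the Foxo1 window. Both strands were searched for a FOXO motif (GTAAACA), an E-box (CACGTG) and an ETS motif (CCGGAAG, added after the Eif4ebp2 window had been read). The Eif4ebp2 window held the ETS letters, which 18.2% of the 33 member windows and 8.86% of all 32851 promoter windows held, and the Foxo1 window held none of these motifs. The FOXO motif was in 3.03% of member windows, from Akt1, and in 3.65% of all windows. The E-box was in 12.1% of member windows (Igf2r, Irs1, Irs2 and Rheb) and in 7.15% of all windows. A match is a description of the letters only.

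At the receptors the labelled knockout stayed near control islets. Insr, the insulin receptor, had 43.2 CPM in the labelled knockout and 44.8 CPM in control islets, a ratio of 0.999 (0.919 to 1.09). Igf1r, the receptor for IGF1, had 9.64 and 11.5 CPM in the same libraries, a ratio of 0.865 (0.727 to 1.03). Igf2r, which binds IGF2 and delivers it to lysosomes, had 72.7 and 71.0 CPM, a ratio of 1.06. Both adaptor genes were below 1 without reaching the fold limit. Irs2, the adaptor best known in beta cells, had 204 counts in the labelled knockout and 284 in control islets, a ratio of 0.807 (0.671 to 0.970). Irs1 had 55 and 73 counts, a ratio of 0.847 whose interval (0.586 to 1.22) included 1.

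Among PI3K genes, Pik3ca and Pik3cb, which encode catalytic subunits, had ratios of 1.07 and 0.810, and Pik3r1 and Pik3r2, which encode regulatory subunits, had 0.963 and 1.14. Pdpk1, which encodes PDK1, had 35.6 CPM in the labelled knockout and 46.4 CPM in control islets, a ratio of 0.794 (0.727 to 0.867). None of these 5 reached 1.5-fold. In the AKT and GSK3 branch Akt1 had 212.2 CPM in the labelled knockout against 191.2 CPM in control islets (ratio 1.15, 1.11 to 1.20), and Akt2 had 53.1 against 62.4 CPM (0.881, 0.818 to 0.948). The ratios were 0.942 for Gsk3a and 1.04 for Gsk3b, kinases that act on glycogen synthase and beta-catenin. Foxo3, the relative of Foxo1, had 57.4 CPM in the labelled knockout and 62.2 CPM in control islets, a ratio of 0.955 (0.888 to 1.03). Phlpp1 and Phlpp2, phosphatases that switch AKT off, had ratios of 0.912 and 1.09, with intervals that included 1.

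In the mTOR branch the complex itself was close to level. Mtor, the kinase, had 45.6 CPM in the labelled knockout and 51.2 CPM in control islets (ratio 0.922, 0.850 to 0.999), and Rptor, the scaffold of mTORC1, had 46.5 and 50.5 CPM (0.953). Rictor, the scaffold of mTORC2, had 540 counts in the labelled knockout and 790 in control islets, a ratio of 0.768 (0.687 to 0.858), the lowest of the 6 complex genes. Deptor, an inhibitor that binds mTOR in both complexes, was the member with the highest ratio, at 79.5 CPM in the labelled knockout against 60.6 CPM in control islets (1.36, 1.27 to 1.45), under the 1.5-fold limit. Mlst8, a subunit of both complexes, and Akt1s1, which encodes the mTORC1 inhibitor PRAS40, had ratios of 1.03 and 1.02. Tsc1 and Tsc2, the subunits of the TSC complex, had 1.03 and 1.02, and Rheb had 1.15 (1.06 to 1.25).

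Of the mTORC1 targets, Rps6kb1 and Rps6kb2, the S6 kinase genes, had ratios of 0.966 and 1.22. Rps6kb2 shares 23.7% of its exonic bases with Coro1b and Ptprcap, so its counts are less certain. Eif4ebp1, the close relative of Eif4ebp2, had 384 counts in the labelled knockout and 379 in control islets, a ratio of 1.14 (0.986 to 1.32). Eif4ebp1 therefore made up 77.1% of the pair per exon length in the labelled knockout (74.2 to 79.7) and 56.4% in control islets (53.2 to 59.4), a share that needs no scaling between libraries. Foxo1 made up 43.7% of the Foxo1 and Foxo3 pair in the labelled knockout (41.8 to 45.6) and 55.6% in control islets (54.0 to 57.2).

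**Figure D2:**
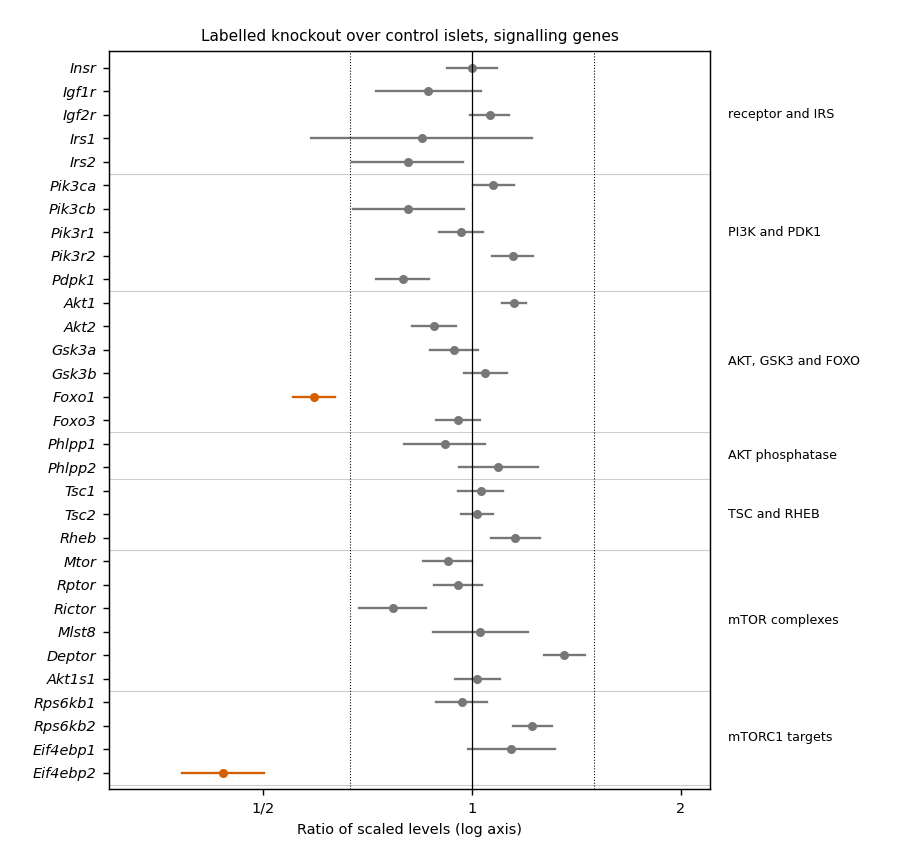
Ratio of the labelled knockout over control islets for each of the 31 genes (horizontal log axis) with its exact 95% counting interval; dotted lines mark 1.5-fold in either direction and orange marks genes called lower. Eif4ebp2 at 0.438 and Foxo1 at 0.592 lie beyond the left line, and Deptor at 1.36 lies farthest to the right, inside the limit.

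Around these members, 10 lists holding 145 further genes of the pathway were examined in the same libraries, where 6.13% of all measured genes were called higher and 15.3% lower. None of the 4 insulin and IGF ligands was called, with Igf2 at a ratio of 0.890 (0.703 to 1.12) and Igf1 at 1.01. Of 7 measured IGF binding protein genes 1 was higher (Igfbp6, 1.80-fold) and 1 lower. Receptor adaptors and regulators had 3 of 16 lower (18.8%, near the share of all genes), among them the ubiquitin ligase genes Cbl (ratio 0.340) and Cblb (0.608). Other PI3K and PI3K phosphatase genes had 6 of 16 lower (37.5%), led by Inpp5d (0.258, 21.5 CPM in the labelled knockout against 86.6 CPM in control islets), Pik3cg (0.220) and Inpp4b (0.211). Inpp5d and Pik3cg are known mainly from blood cells, and B and T cell markers were lower in the same library. The part of blood cells in the calls of this list was not tested. Pik3c2g was the 1 member of this list called higher, at a ratio of 1.98.

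Of 18 measured FOXO target genes 9 were lower (50%, against 15.3% of all measured genes) and 1 was higher, and their median log2 ratio was -0.68, beside 0.00 over all genes. The lower calls included Il7r (0.170) and Bcl6 (0.294), genes known from lymphocytes, and the higher one was Gadd45a, a stress-induced gene, at 2.17-fold. The part of lymphocytes in the lower calls was not tested. Other AKT and FOXO branch genes had 1 of 16 higher, Foxo6 at 2.03-fold (16.5 CPM in the labelled knockout against 8.42 CPM in control islets), and 2 lower, Trib2 (0.616) and Tbc1d4 (0.665). Amino acid sensing genes had 2 of 27 lower, Castor1 (0.568) and Depdc5 (0.664), and energy and stress inputs had 1 of 11 higher, the AMPK subunit gene Prkaa2 (1.62), and 1 lower, Ddit4 (0.439), a stress-induced inhibitor of mTORC1. Other mTOR complex genes had 2 of 8 lower, with Prr5, an mTORC2 subunit gene, at 0.345. The list of genes downstream of mTORC1 had 3 of 16 lower (18.8%, near the share of all genes): Rps6ka1 (0.402), Tfeb (0.587) and Eef2 (0.634). Rps6ka1 encodes a kinase of the RSK family, not an S6 kinase driven by mTORC1, so its place in this list is loose.

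**Figure D3:**
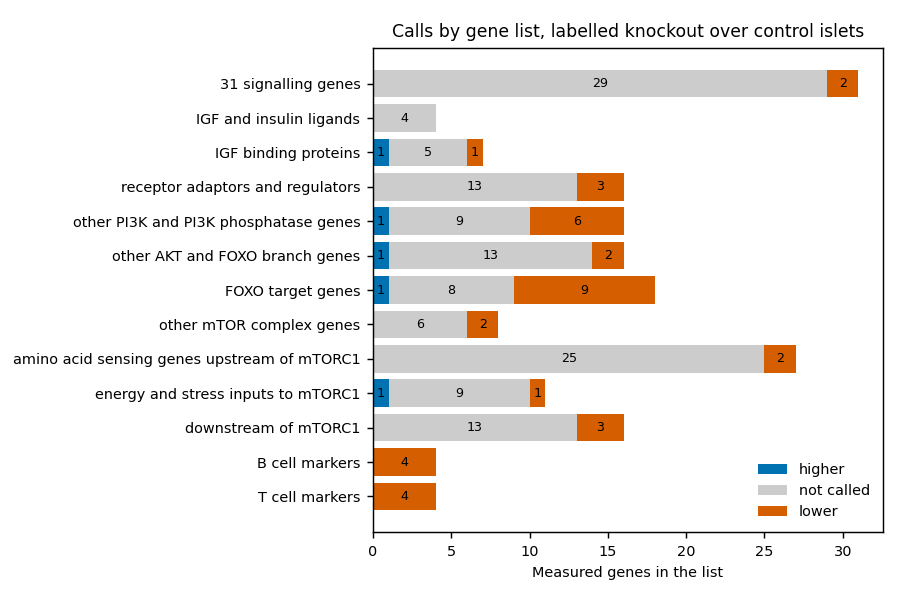
Number of measured genes called higher, not called and called lower in the labelled knockout over control islets, for the 31 signalling genes, 10 further pathway lists and the B and T cell markers. The 31 genes hold 2 lower calls, FOXO targets 9 of 18 and other PI3K genes 6 of 16, while all 4 B cell and all 4 T cell markers were lower.

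The comparison of the IMP2 RIP with IgG addresses which RNAs IMP2 antibody recovers above a control precipitation. Akt1, Gsk3b and Foxo3 were higher in the RIP, while their relatives Akt2, Gsk3a and Foxo1, and also Eif4ebp1, were higher in the IgG library. Akt1 was near the limit and lost its call with DESeq2 size factors, at a log2 ratio of 0.97 there and 1.01 by TMM. Of the 30 members measured, 13 were called higher at a limit of 2-fold (43.3%), against 43.2% of the 14822 genes measured, and 8 were called lower (26.7%), against 30.5%. In either direction 73.7% of all measured genes were called. These shares are near those of the whole table and are not a result about the pathway. The split also depended on scaling. Library totals moved the median of all genes by 0.69 on the log2 scale and gave 17 members higher and 7 lower. Of the 14822 genes they called 7670 higher and 3387 lower. Totals that leave out acinar and hormone genes moved the median by 1.12 and gave 20 members higher and 6 lower, beside 8546 and 2804 of all genes. The summed brown adipocyte markers stood at 721.9 CPM in the RIP against 10464 CPM in the IgG library beside all of these values.

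Within a library the balance of a pair needs no such scaling. Akt2, the AKT form best known for insulin-stimulated glucose uptake in fat and muscle, had 62.4 CPM in the RIP, 329.7 CPM in the IgG library and 62.4 CPM in control islets, and Akt1 had 117.0, 36.0 and 191.2 CPM in the same libraries. Per exon length Akt1 made up 76.5% of the pair in the RIP (74.2 to 78.8), 16.0% in the IgG library (14.7 to 17.3) and 84.2% in control islets (83.5 to 84.9). The RIP lay near islets and the IgG library on the other side of an even split.

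Gsk3a, which shares 28.3% of its exonic bases with another gene, had 35.0 CPM in the RIP against 197.9 CPM in the IgG library, and Gsk3b had 69.0 against 19.9 CPM. Gsk3a thus made up 63.2% of the pair in the RIP, 97.1% in the IgG library and 73.5% in control islets. Foxo1 had 74.7 CPM in the RIP against 221.9 CPM in the IgG library, and Foxo3 had 63.1 against 18.2 CPM. The share of Foxo1 was 50.8% in the RIP (47.4 to 54.3), 91.4% in the IgG library (90.3 to 92.4) and 55.6% in control islets. Foxo1 and Gsk3a thus took a larger share in the IgG library than in either the RIP or control islets.

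Among the called members with counts in both libraries Eif4ebp1 differed most, with 137 counts in the RIP (22.7 CPM) against 3374 in the IgG library (255.7 CPM), a ratio of 0.0551 (0.0461 to 0.0654). Eif4ebp2 had 78 counts in each, 12.9 CPM in the RIP and 5.91 CPM in the IgG library. The share of Eif4ebp1 in the pair was 82.2% in the RIP (77.7 to 86.1), 99.1% in the IgG library and 56.4% in control islets. Pik3ca made up 92.1% of its pair with Pik3cb in the RIP, 46.8% in the IgG library and 82.3% in control islets. Pik3r1 made up 31.6% of its pair with Pik3r2 in the RIP, 57.9% in the IgG library and 28.2% in control islets. The S6 kinase pair was an exception, with Rps6kb1 at 42.9% in the RIP (38.1 to 47.8), 26.4% in the IgG library (21.2 to 32.3) and 27.8% in control islets (26.3 to 29.3), so here the IgG library and islets lay together. Rps6kb2 shares 23.7% of its exonic bases with Coro1b and Ptprcap, so the balance of this pair is less certain.

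**Figure D4:**
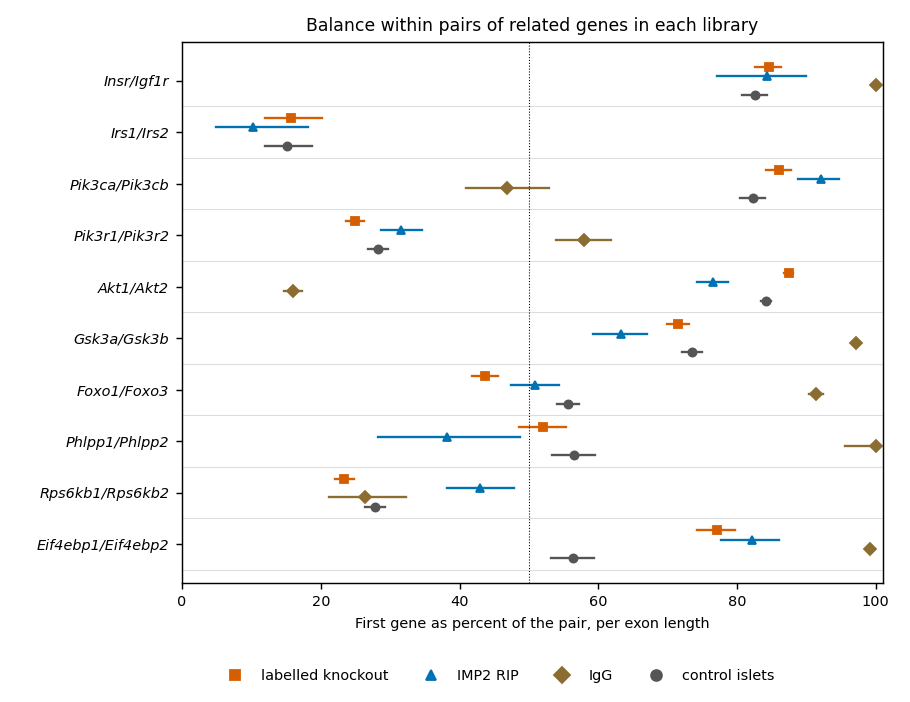
First gene of each of 10 pairs of related genes as a percent of the pair, computed per exon length (horizontal axis, 0 to 100), in each library with its exact 95% counting interval. For Akt1 and Akt2 the IgG library lies at 16.0% and the others above 76%, and for Foxo1, Gsk3a and Eif4ebp1 the IgG library lies above 91%; Irs1 and Irs2 had no IgG counts and no IgG symbol.

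At the receptors the IgG library held Insr but had 0 counts of Igf1r, Irs1 and Irs2. Insr had 97 counts in the RIP (16.1 CPM) against 924 in the IgG library (70.0 CPM), a ratio of 0.143 (0.114 to 0.176). Igf1r had 22 counts in the RIP against 0 in the IgG library, at least 9.96-fold higher when the absent counts are set at 3, and Irs2 had 61 against 0, at least 27.6-fold higher. Such a floor leaves out the counting error of the library with counts, and the exact intervals start lower, at 7.44 for Igf1r and 21.8 for Irs2. Irs1 had 10 against 0 and was below 1 CPM on average. The RIP held an estimated 18 reads per molecule and the IgG library 21, so 22 counts may stand for few molecules. With counts divided by these estimates, Igf1r, Irs2, Phlpp2, Pdpk1, Pik3cb, Rictor and Mtor lost their calls. That left 8 members higher and 6 lower, beside 2309 and 2829 of all measured genes.

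The TSC and RHEB genes and the S6 kinase gene Rps6kb1 were higher in the RIP or not called. Tsc1 had 353 counts in the RIP (58.6 CPM) against 39 in the IgG library (2.96 CPM), a ratio of 12.3 (8.82 to 17.6). Rheb had 30.5 CPM in the RIP against 2.12 CPM in the IgG library, a ratio of 8.93 (5.98 to 13.8). Tsc2 had a ratio of 1.46 and was not called.

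Rictor had a ratio of 5.11 (3.26 to 8.29) and Rps6kb1 of 3.97 (3.07 to 5.19). Mtor stood at 28.5 CPM in the RIP against 37.9 CPM in the IgG library, a ratio of 0.467 that changed sign with scaling, and Akt1s1 at 27.4 against 127.0 CPM (0.134). Rptor (1.15), Mlst8 (0.556), Deptor (1.34), Rps6kb2 (1.90), Igf2r (1.10) and Pik3r1 (0.953) were within 2-fold under the scaling used here, and so was Phlpp1 (0.690). The other members called higher were Pdpk1 (4.18), Pik3ca (3.81), Pik3r2 (2.84) and Phlpp2, and Pik3cb was lower (0.288). Phlpp2 had 67 counts against 0, at least 30.3-fold by the floor of 3 counts, and its exact interval starts at 24.0.

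The same RIP library set against control islets, the nearest measure of RNA input in these data, had fewer members called. Marker levels differed here as well. Brown adipocyte markers stood at 721.9 CPM in the RIP against 2.09 CPM in control islets and adipocyte markers at 408.1 against 38.6 CPM, with all 4 of each list higher. B cell markers stood at 111.2 against 739.8 CPM and T cell markers at 2.82 against 84.3 CPM, with all 4 of each list lower and 1 T cell marker at 0 counts in the RIP. Their part in the calls that follow was not tested. Deptor was the 1 member of 31 called higher (3.23%), against 16.8% of the 15968 genes measured, and Insr, Igf1r and Phlpp1 were the 3 called lower (9.68%), against 24.3%, where calls in either direction made up 41.2%. Deptor (ENSMUSG00000022419, chromosome 15, 55112317 to 55259271, plus strand) had 632 counts in the RIP, or 104.9 CPM, against 60.6 CPM in control islets, a ratio of 2.10 (1.91 to 2.30). Its level in the IgG library was 48.4 CPM. The log2 ratio of Deptor was 1.07 here, 0.79 by library totals and 0.64 by totals that leave out acinar and hormone genes, the last 2 under the limit. Those scalings moved the median of all genes by -0.28 and -0.43, and gave 7 and 10 members lower and 0 higher. Of all measured genes they called 4832 and 5493 lower and 2175 and 1964 higher. Deptor was also the member with the highest ratio in the labelled knockout, a comparison that shares the control library.

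The lower members were receptors and an AKT phosphatase. Insr had 16.1 CPM in the RIP against 44.8 CPM in control islets (ratio 0.436, 0.351 to 0.537), Igf1r 3.65 against 11.5 CPM (0.384, 0.237 to 0.592) and Phlpp1 5.48 against 18.7 CPM (0.355, 0.241 to 0.505). With counts divided by reads per molecule Insr kept its call and Igf1r and Phlpp1 lost theirs. Just inside the limit lay Eif4ebp1 at 1.92 (1.57 to 2.34) and Mlst8 at 1.75 (1.40 to 2.17). Eif4ebp1 and Mlst8 were also higher in the IgG library than in control islets.

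Just inside the lower limit lay Pik3cb at 0.520, Eif4ebp2 at 0.536 (0.419 to 0.677) and Rps6kb2 at 0.538. Foxo1, the member next to Eif4ebp2 among those lower in the labelled knockout, stood level at 74.7 CPM in the RIP against 89.2 CPM in control islets, a ratio of 1.02 (0.917 to 1.12). The remaining 21 members had ratios between 0.601 (Akt1s1) and 1.47 (Pik3r1). Among them were Akt1 (0.743) and Akt2 (1.21), Gsk3a (0.843) and Gsk3b (1.36), Tsc1 (1.27) and Tsc2 (0.948), and Mtor (0.677) and Rptor (0.882). Across the 31 members the Spearman correlation of this log2 ratio was -0.17 with the length of the longest transcript and -0.15 with its GC content. Over all measured genes with a GENCODE M21 transcript the same values were -0.08 and -0.02. With length the members had 0.30 in the RIP over IgG and -0.32 in IgG over control islets. These are weak values on points that share their libraries.

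The IgG library against control islets carried the largest differences for these genes. It had 7 of 31 members higher (22.6%), against 25.7% of the 15352 genes measured, and 15 lower (48.4%), against 47.3%, with 73% of all measured genes called in either direction. These shares are again near the whole table. Eif4ebp1 was 33.5-fold higher after TMM scaling (30.1 to 37.3). Its levels before that scaling were 255.7 CPM in the IgG library against 14.4 CPM in control islets. Akt2 was 9.95-fold higher (9.40 to 10.5), Gsk3a 7.39-fold, Foxo1 4.68-fold and Akt1s1 4.32-fold. Mlst8 at 3.02-fold and Insr at 2.94-fold completed the members called higher. Library totals, which moved the median of all genes by -0.91, gave 5 members higher and 20 lower, beside 2577 and 9191 of all genes. Insr and Mlst8 lost their higher calls there. Totals that leave out acinar and hormone genes moved the median by -1.50 and gave 3 members higher (Eif4ebp1, Akt2 and Gsk3a) and 21 lower. Of all genes they called 1924 higher and 10441 lower.

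The members lower in the IgG library than in islets included Igf1r and both IRS adaptors. Igf1r had 0 counts against 304 in control islets, at least 27.0-fold lower when the absent counts are set at 3. By the same floor Irs2 (0 against 284) was at least 25.2-fold lower and Irs1 (0 against 73) at least 6.47-fold lower. Phlpp2 had 0 against 477 counts, at least 42.3-fold lower by that floor. The exact intervals start closer to 1, at 21.8-fold for Igf1r, 20.3-fold for Irs2, 5.13-fold for Irs1 and 34.3-fold for Phlpp2. With counts divided by reads per molecule Irs1, Irs2, Phlpp1 and Eif4ebp2 lost their lower calls. That left 11 members lower, beside 3963 of all measured genes. Rheb had 28 counts in the IgG library against 1184 in control islets (ratio 0.0889, 0.0588 to 0.129) and Tsc1 39 against 1476 (0.0993). Rictor (0.119) and Pdpk1 (0.154) were lower as well. In the same comparison the wider lists held Lamtor1 and Lamtor4, subunits of the lysosomal scaffold for mTORC1, at 10.2-fold and 10.1-fold higher, Ppp2r5a at 28.0-fold and Lpin1 at 17.7-fold higher. Pck1, a FOXO target of fat and liver, stood at 768.0 CPM in the IgG library against 0.531 CPM in control islets, and at 64.6 CPM in the RIP.

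**Figure D5:**
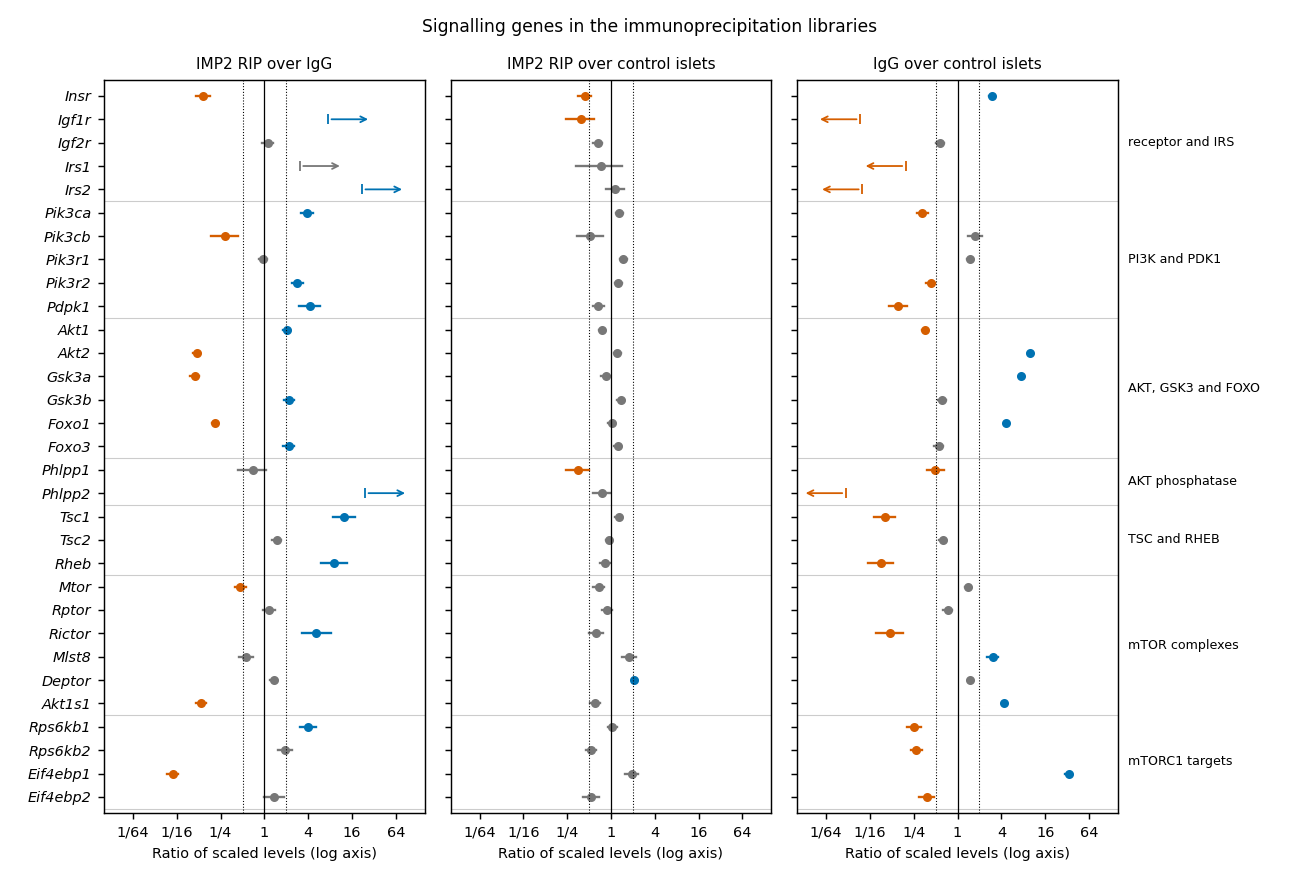
Ratio of scaled levels (horizontal log axis) for each of the 31 genes in the IMP2 RIP over IgG, the IMP2 RIP over control islets and IgG over control islets, with exact 95% counting intervals; blue and orange mark genes called higher and lower, dotted lines mark 2-fold, and arrows start at the interval bound where 1 library had 0 counts. Most genes lie within 2-fold of 1 in the middle panel and scatter widely in the outer ones, which share the IgG library.

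The wider lists were also set between the RIP and the IgG library, where 43.2% of all measured genes were called higher and 30.5% lower. Insrr, the orphan relative of the insulin receptor, had 499.2 CPM in the RIP against 5.38 CPM in the IgG library, a ratio of 57.5 (45.5 to 73.9), and 755.3 CPM in control islets. Among amino acid sensing genes 11 of 27 were higher (40.7%) and 9 lower (33.3%), shares near those of all genes, with Sec13 at 9.15, and Lamtor4 and Lamtor2 at 0.123 and 0.136. Other PI3K genes had 8 of 15 higher (53.3%), among them Inpp4a (15.2), and 3 lower (20%). Of the ligands, Igf2 had a ratio of 0.0709 and Igf1 of 0.441, while Igf1 was 5.67-fold higher in the RIP than in control islets. Set against control islets, the RIP was also higher for Lpin1 (6.93) and Fnip1 (3.48). Over IgG, Lpin1 was lower in the RIP (0.377) and Fnip1 higher (4.51). The IgG library was itself higher than control islets for Igf1 (12.4-fold) and, as given above, for Lpin1. Brown adipocyte markers stood at 721.9 CPM in the RIP against 2.09 CPM in control islets. Their part in these ratios was not tested. None of the 11 energy and stress inputs was called against control islets, where 16.8% of all measured genes were called higher and 24.3% lower.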

How the data were processed

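The authors deposited whole-number counts of reads per Ensembl gene, 1 file per library, plus 5 closing entries without a gene. STAR, HTSeq and the mm10 build are listed in the submitters' processing notes; for versions, annotation release and strand option, the sources used here give nothing. Reads of overlapping or antisense genes may therefore not be separable, which touches most Irs1, Gsk3a, Rps6kb2 and Mlst8, each sharing over 20% of exonic bases. The closing entries held 50.3% of the total in the labelled knockout, 72.4% in the RIP, 70.5% in the IgG library and 50.8% in control islets, and stayed out of library sizes.

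Names and exon lengths came from GENCODE M21 (GRCm38), which matched 42548 of 43629 identifiers. CPM and TPM were computed here, TPM over merged exons of matched genes. Pairs of libraries were scaled by TMM in edgeR 4.0.16 (R 4.3.3), with exact Clopper-Pearson intervals at 95%. No dispersion can be estimated with 1 library per group, so no test was run. Medians used 0.5 added counts. A fold against 0 counts was computed against 3 counts in that library. Reads per molecule were estimated roughly, from genes that exceeded 5 counts in the immunoprecipitation but were absent from the labelled knockout and control libraries. The median count of those genes was taken. Fat genes can be among them, and leaving out counts of 5 or fewer raises the median. The median also follows the RNA level of those genes, so it is not a measured rate of repeated reads. Reads are not independent molecules. Alternatives were other scalings (DESeq2 1.42.0 size factors, totals), CPM minimums, fold limits, an assumed variation of 0.2 and a pseudocount of 1. The interval and call were run on simulated counts that held counting error only. That setting had no variation between libraries, no repeated reads and no TMM scaling, so it cannot check the intervals for these libraries. Scripts ran in Python 3.11.15 (SciPy 1.17.1, NumPy 2.4.6, Matplotlib 3.10.9, pandas 2.3.3).

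The members, gene lists and named genes were chosen with earlier results of these data known. All 31 members are named; of the other lists, up to 3 called genes per direction and comparison were eligible, ranked by the distance between a ratio of 1 and the closer end of the interval, at a mean of at least 5 CPM. Some eligible genes are not reported here. Levels of such genes in other comparisons, and the Foxo1 promoter and ETS motif, were added after values were seen. Ratios against control islets share the control library, and both RIP comparisons share the RIP library.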

Additional observations from a re-analysis of the deposited data

How the results depend on the processing

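No paired analysis was possible because each group has 1 library, and none was left out for the same reason. In the labelled knockout over control islets, a 2-fold limit and an assumed variation of 0.2 each left 1 member lower (Eif4ebp2). Over all genes there, 198 were higher and 1375 lower at 2-fold, 263 and 1573 with the assumed variation, and 497 and 1582 at a minimum of 5 CPM.

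In the RIP over IgG, the median log2 ratio of the members was 1.19 by library totals and 1.61 by totals that leave out acinar and hormone genes. These second totals gave 20 members higher, with 8546 genes higher and 2804 lower over the whole table. They gave a log2 ratio of 0.023 for Mtor, which was lower by TMM. A 4-fold limit gave 7 members higher, with 4948 genes higher and 2975 lower. Counts per molecule gave 8 members higher with 2309 genes higher and 2829 lower, and a minimum of 5 CPM gave 3945 genes higher.

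In the RIP over control islets, 0 members were higher by library totals, by totals that leave out acinar and hormone genes and at 4-fold, while 7, 10 and 0 were lower. Over all genes those totals gave 2175 and 1964 higher and 4832 and 5493 lower. The median log2 ratio of the members was -0.52 and -0.68 by those totals. Counts per molecule left 1 member lower (Insr), with 1373 genes higher and 1004 lower. All genes gave 1437 higher and 2278 lower at 4-fold, and 1302 and 2220 at 5 CPM.

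In IgG over control islets, library totals gave a member median of -1.77 and 2577 genes higher, and totals that leave out acinar and hormone genes gave -2.36, 3 members higher and 1924 genes higher. A 4-fold limit gave 8 members lower, with 2474 genes higher and 5543 lower, and counts per molecule gave 3963 genes lower. The cause of these changes was not tested. Depth limits the RIP most, where the median member had 186 counts.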
